A study of Mus musculus with 12 samples.

Results

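Interferon-stimulated genes are the genes that a cell switches on when interferon binds its receptors, and 44 of them were followed through the bulk RNA-seq libraries of murine bone marrow-derived macrophages (BMMs). The members were a fixed list of gene symbols, 36 targets of type I interferon and 8 IFN-γ-type GTPases of the GBP and IRG families, picked by symbol with no threshold on a value, but at a time when earlier results of these data were known. Of the 44 symbols, 43 were matched among the 38887 genes of the files, and the expression of Gbp5 was not analysed here. All 43 passed the filter on low counts and were tested among 12846 genes.

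The study compared WT BMMs with BMMs lacking IGF2BP2, an RNA-binding protein that reads m6A-modified mRNAs, without treatment (M0) or after 8 h with 20 ng/ml IL-4 (M2), with 3 libraries in each of the 4 groups. The knockout (KO) mice carried floxed exons 4 and 5 of Igf2bp2 together with a Cre recombinase expressed from the Lyz2 locus, which is active in myeloid cells. WT mice were littermates free of floxed alleles, with or without Cre. Donor mice were 3 to 4 months old, and all marrow cells were differentiated in medium with M-CSF, which was also present during treatment.

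Type I interferons act through the receptor IFNAR1/IFNAR2 and the kinases JAK1 and TYK2 on a complex that holds STAT2 and IRF9 and binds the interferon-stimulated response element (ISRE) in the promoters of its targets. IFN-γ acts through IFNGR1/IFNGR2, JAK1 and JAK2 on promoters with the gamma-activated sequence (GAS), and the GBP and IRG GTPases that it induces attack vacuoles holding intracellular pathogens. Macrophages express many of these genes at a low level without infection, whereas IL-4 signals mainly through STAT6.

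The ISRE letters TTTCNNTTTC, read on both strands, occurred in the promoter window of 20 of the 35 members that had a window (57.1%), against 3.99% of 27025 genes, where a window held 250 bases before and 50 bases after a RefSeq start site (GRCm38.p6). A gene with several windows counted once, with a match in any of them. Of the type I targets that had a window, 14 of 28 held a match (50%), and of the GTPases 6 of 7 did (85.7%), Gbp5 included. The GAS letters TTCNNNGAA occurred in 11 of the 35 members that had a window (31.4%) against 9.55% of all genes. No window was at hand for Usp18, Dhx58, Zbp1, Oas2, Parp9, Parp14, Mx1, Rtp4 and Iigp1. A match of letters describes the window and does not show that a factor binds there. The stretches below carry the matches of members on which the comparisons turn, of Isg15 as the best known target, and of a pair of IRG genes for contrast. Each is written 5′ to 3′ along its gene with the ISRE letters, or their reverse complement, in capitals, and overlapping matches merged into a single run.
Isg15: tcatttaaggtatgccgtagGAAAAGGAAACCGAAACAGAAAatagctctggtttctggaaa
Ifit1: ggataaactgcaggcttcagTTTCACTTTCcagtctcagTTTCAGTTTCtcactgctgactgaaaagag
Ifit3: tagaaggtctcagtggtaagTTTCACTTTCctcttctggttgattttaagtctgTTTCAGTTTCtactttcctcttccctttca
Trim30a: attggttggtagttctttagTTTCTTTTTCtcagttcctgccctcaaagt
Stat2: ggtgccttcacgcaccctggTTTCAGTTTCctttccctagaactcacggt
Ddx58: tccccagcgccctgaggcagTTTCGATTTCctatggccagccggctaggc
Oas3: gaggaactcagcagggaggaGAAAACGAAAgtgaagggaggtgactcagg
Slfn5: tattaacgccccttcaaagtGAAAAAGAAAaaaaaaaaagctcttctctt
Gbp2: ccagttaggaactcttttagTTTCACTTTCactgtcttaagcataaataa
Irgm1: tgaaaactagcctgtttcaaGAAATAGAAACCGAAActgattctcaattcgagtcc
Igtp: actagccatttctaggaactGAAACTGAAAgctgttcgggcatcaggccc

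The type I stretches lay at chr4:156200855-156200916 (Isg15, minus strand), chr19:34640765-34640833 (Ifit1, plus strand), chr19:34583353-34583436 (Ifit3, plus strand), chr7:104465200-104465249 (Trim30a, minus strand), chr10:128270256-128270305 (Stat2, plus strand), chr4:40239794-40239843 (Ddx58, minus strand), chr5:120777705-120777754 (Oas3, minus strand) and chr11:82951927-82951976 (Slfn5, plus strand). Those of the GTPases lay at chr3:142620584-142620633 (Gbp2, plus strand), chr11:48871415-48871470 (Irgm1, minus strand) and chr11:58199502-58199551 (Igtp, plus strand). Those of Ddx58 and Irgm1 span the start site itself. Of the 12 members called in the M0 comparison described further on, Trim30a, Stat2, Ddx58, Oas3, Slfn5 and Gbp2 held an ISRE match, Samhd1, Sp100, Irf9 and Oasl2 held none in their windows, and Rtp4 and Dhx58 had no window.

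**Figure D1:**
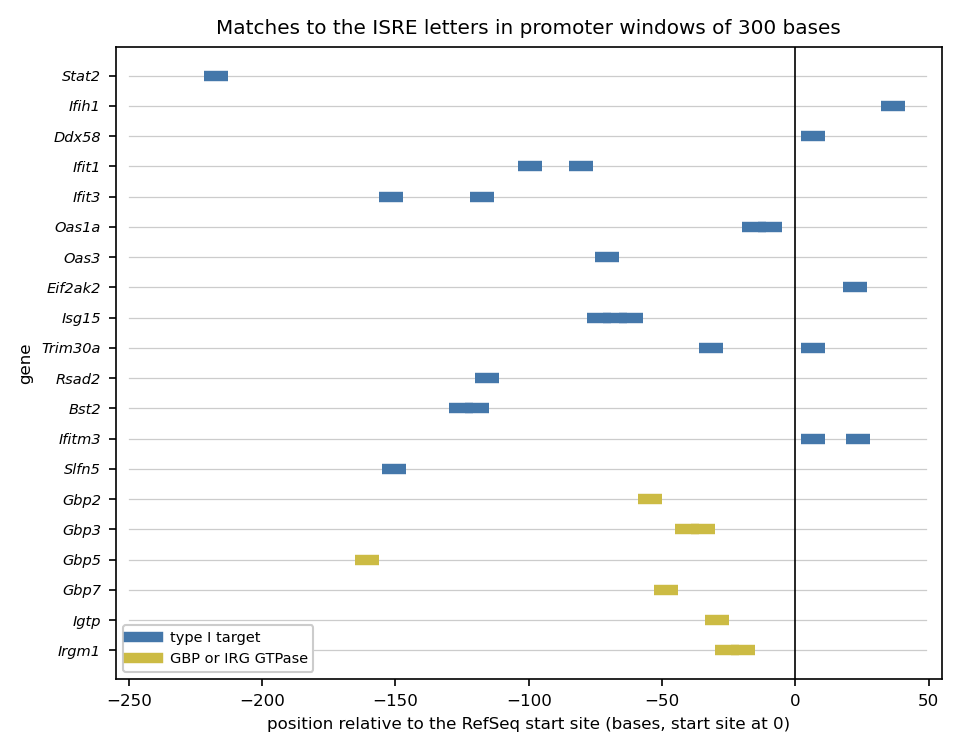
Positions of the ISRE matches in the promoter windows of the 20 members that held one, in bases from the RefSeq start site (vertical line at 0), with each grey line showing a window from 250 bases before to 50 bases after the start. Blue bars are type I targets and yellow bars GBP or IRG GTPases, and the GTPase matches all lay before the start site.

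The libraries held between 20011792 and 39632770 expected counts, with WT M2 the shallowest group (20011792 to 22744704). Igf2bp2 itself, counted over all its exons, ranged from 76.5 to 118 CPM, counts relative to library size after TMM scaling, in WT M0, from 84.9 to 95.9 CPM in KO M0, from 178 to 233 CPM in WT M2 and from 129 to 146 CPM in KO M2, so that only the M2 groups separated (log2 fold change -0.65, edgeR adjusted p = 0.0285, against -0.11 and 0.656 in M0). The counts are per gene and not per exon, so that they do not check the removal of exons 4 and 5. Lyz2, the locus that carries Cre, lay between 7030 and 10500 CPM in WT M0 and between 22.1 and 33.2 CPM in KO M0, and between 4180 and 5290 CPM in WT M2 and 11 and 14.7 CPM in KO M2. The loss of IGF2BP2 and the loss of Lyz2 transcript therefore cannot be told apart in these groups. All 7 macrophage markers were expressed, with summed levels of 5040 to 5300 CPM in WT M0 and 5290 to 5430 CPM in KO M0, and all 6 IL-4 response markers rose with IL-4 in both genotypes. Among these markers, Itgam was higher in KO M0 (0.45 ± 0.08, log2 fold change ± SE, edgeR adjusted p = 0.00396) and Mrc1 was lower (-0.86 ± 0.10, adjusted p = 0.000522), with a larger response of Mrc1 to IL-4 in KO (difference 0.69 ± 0.14, adjusted p = 0.0233). With IL-4, 4 of the 7 macrophage markers were called higher and 2 lower in WT (24.9% and 25.1% of all genes). In KO 2 were called higher and 2 lower (26.8% and 26%). Cd14 fell the most of them, with log2 fold changes of -3.09 in WT and -2.86 in KO.

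Most members were expressed in untreated WT BMMs, over a wide range of levels. Per transcript length, Ifitm3, which blocks viral entry at endosomal membranes, was the highest at 2260 ± 239 TPM (SD, n = 3), followed by Bst2 (tetherin, 240 ± 20.5 TPM) and the dNTP hydrolase Samhd1 (162 ± 15.4 TPM). At the other end stood Ifi44 (0.517 ± 0.212 TPM) and the IRG gene Iigp1 (0.25 ± 0.01 TPM). The classical inducible genes were low, with Isg15 at 17.8 ± 1.32 TPM, Ifit3 at 8.67 ± 1.45 TPM and Mx1 at 3.09 ± 0.243 TPM. Isg15, Ifit3 and Mx1 thus lay far below Ifitm3 and Bst2, and beyond the spread of either.

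Differences between groups are given as log2 fold changes ± SE from 3 libraries a group, and library values in the order 1, 2 and 3. In untreated cells the members leaned higher in KO than in WT BMMs. Of 43 members, 12 were called higher and none lower (edgeR quasi-likelihood test, Benjamini-Hochberg adjusted p under 0.05 over all genes), where 5.5% of all 12846 genes were called higher and 9.78% in either direction. The log2 fold change lay above 0 for 38 members, with a median of 0.27, against 49.7% of all genes and a median of -0.00. In 26 members every KO library lay above every WT library, against 16.2% of all genes. The 12 comprised 11 type I targets and 1 GTPase, Gbp2. DESeq2 called 16 members, the 12 among them. Limma on log2(TPM + 1) or log2(TPM + 0.1) called only 4, namely Samhd1, Trim30a, Sp100 and Ddx58. At an unadjusted p under 0.05, 21 of 43 members passed (25.3% of all genes).

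After IL-4 the same comparison gave no call. The edgeR test called 0 of 43 members in M2, where 2.68% of all genes were called, 14 members passed an unadjusted p under 0.05 (20.3% of all genes), limma on log2(TPM + 1) called 0, and DESeq2 called 1, Rtp4, lower in KO. The log2 fold change lay below 0 for 29 of 43 members, against 50.3% of all genes, with a median of -0.10 against -0.00 over all genes. All 29 were type I targets, whereas the 7 GTPases lay between 0.00 and 0.53. In 11 members every KO M2 library lay below every WT M2 library, against 11.7% of all genes. Without WT M2 library 3 the edgeR test called Rtp4.

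**Figure D2:**
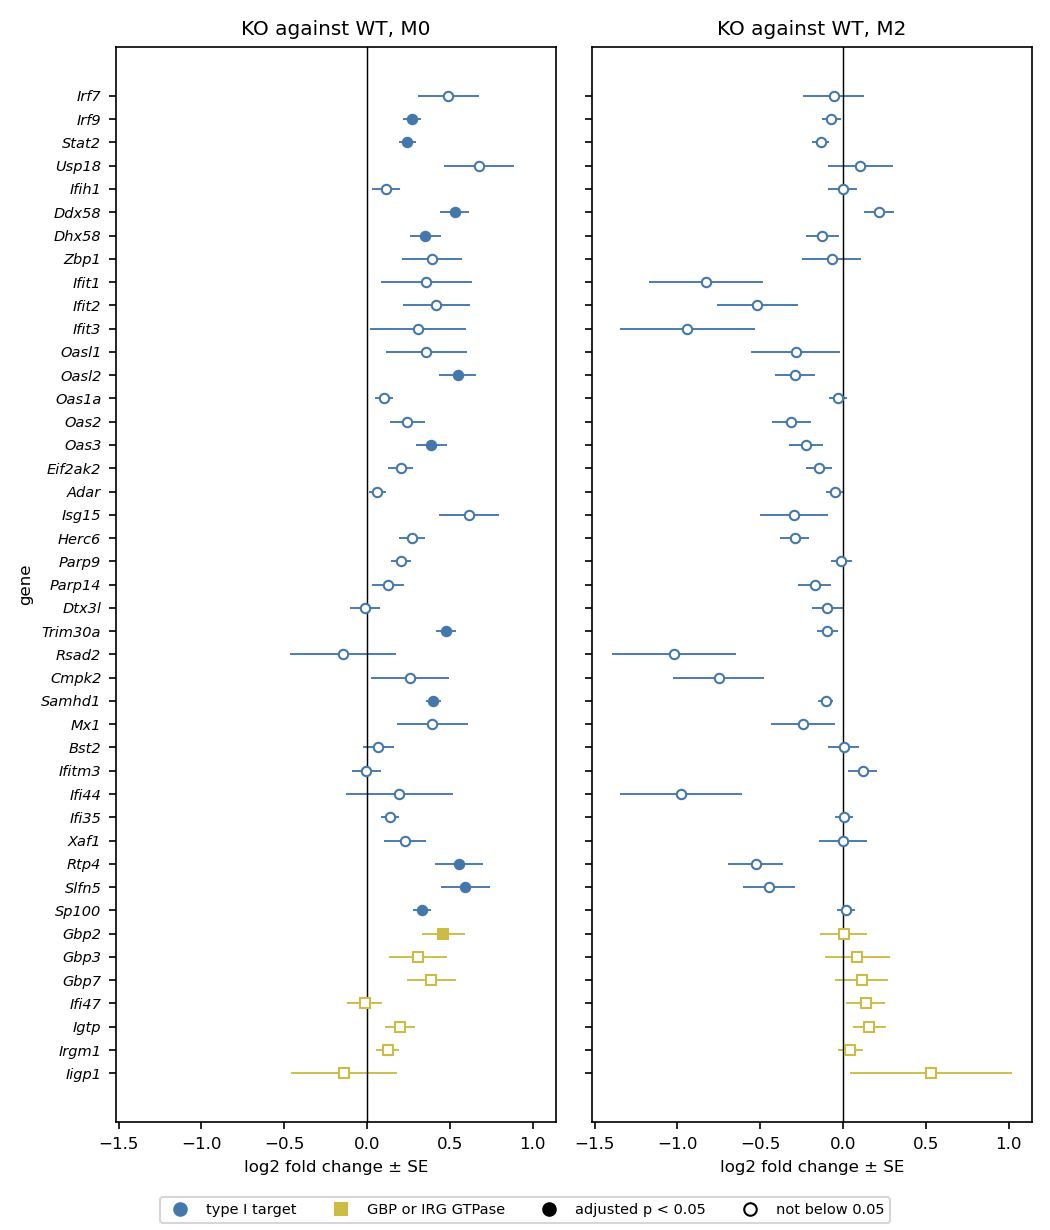
Log2 fold change of KO over WT ± SE for each member in M0 (left) and M2 (right), with 3 libraries per group, circles for type I targets, squares for GTPases and filled symbols for an adjusted p under 0.05. In M0 38 of 43 points lie right of 0 and 12 are filled, and in M2 29 lie left of 0 and no point is filled.

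IL-4 itself lowered most members in both genotypes. In WT BMMs 25 members fell and 8 rose, so that 33 of 43 were called where 50% of all genes were, 25.1% lower and 24.9% higher. In KO BMMs 34 fell and 5 rose, 39 of 43 in all, where 52.8% of all genes were called, 26% lower and 26.8% higher. The median log2 fold change over the members was -0.36 in WT and -0.68 in KO, beside -0.01 and 0.01 over all genes. Of the calls, 32 were shared, which is 32 of the 33 in WT and of the 39 in KO. Samhd1 and Stat2 were among the 32 with opposite signs, higher with IL-4 in WT and lower with IL-4 in KO, although for Stat2 the KO call rested on single libraries and the WT call was lost in both limma fits (adjusted p up to 0.11).

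The IL-4 responses themselves differed between genotypes for 10 members, all with a lower response in KO, where 3.24% of all genes were called and 2.13% in that direction. The difference (KO response minus WT response, log2) lay below 0 for 40 of 43 members, against 48.7% of all genes, with a median of -0.46 against 0.01 over all genes. All 10 were type I targets, and 22 of 36 type I targets and 1 of 7 GTPases passed an unadjusted p under 0.05, against 17.8% of all genes. With the mouse as a block, since libraries of M0 and M2 with the same number deviated together, 17 members were called, the 10 among them. In contrast, limma on log2(TPM + 1) or log2(TPM + 0.1) called only 2 for the difference, Samhd1 and Trim30a. This difference, the M0 comparison and the IL-4 comparisons share the untreated libraries, so that a high KO M0 value enters each that uses it.

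**Figure D3:**
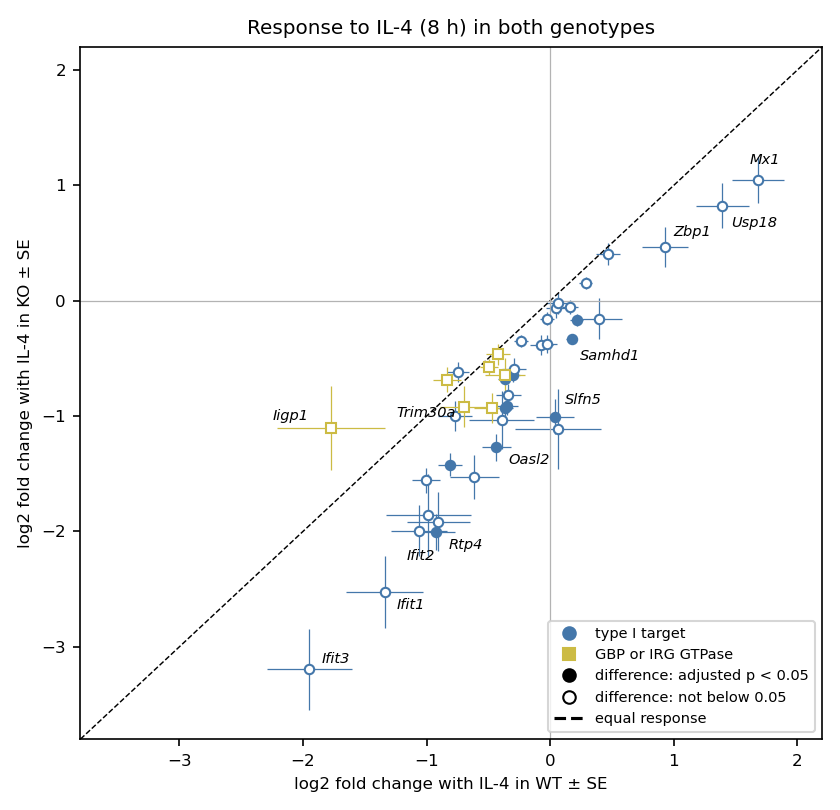
Log2 fold change with IL-4 in WT (x axis) and in KO (y axis) ± SE for the 43 members, with 3 libraries per group, circles for type I targets, squares for GTPases, and filled symbols where the difference between both responses had an adjusted p under 0.05. Of the points, 40 lie below the dashed line of equal response, and the filled ones are the 10 called members.

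The counts rested in part on single libraries. KO M0 library 1 was the highest KO M0 library for 38 of 43 members, against 35.6% of all genes, and WT M2 library 1 was the highest of its group for 24 of 43 (32.1% of all genes). Without KO M0 library 1 the M0 calls numbered 7 and those for the difference 5. The M0 calls numbered 5 without WT M0 library 2 and 6 without KO M0 library 3. For the difference, 3 calls were left without WT M0 library 2 or KO M2 library 3, 4 without KO M0 library 3, 5 without WT M2 library 2 and 6 without KO M2 library 2. Without both libraries of KO mouse 1, an exclusion chosen after the data were seen, 6 members were called in M0, 0 in M2, 35 with IL-4 in KO and 2 for the difference. Samhd1, Trim30a, Sp100 and Ddx58 kept their M0 call in 6 of 6 fits that each left out 1 library, and Samhd1 and Trim30a kept the call for the difference in 12 of 12.

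**Figure D4:**
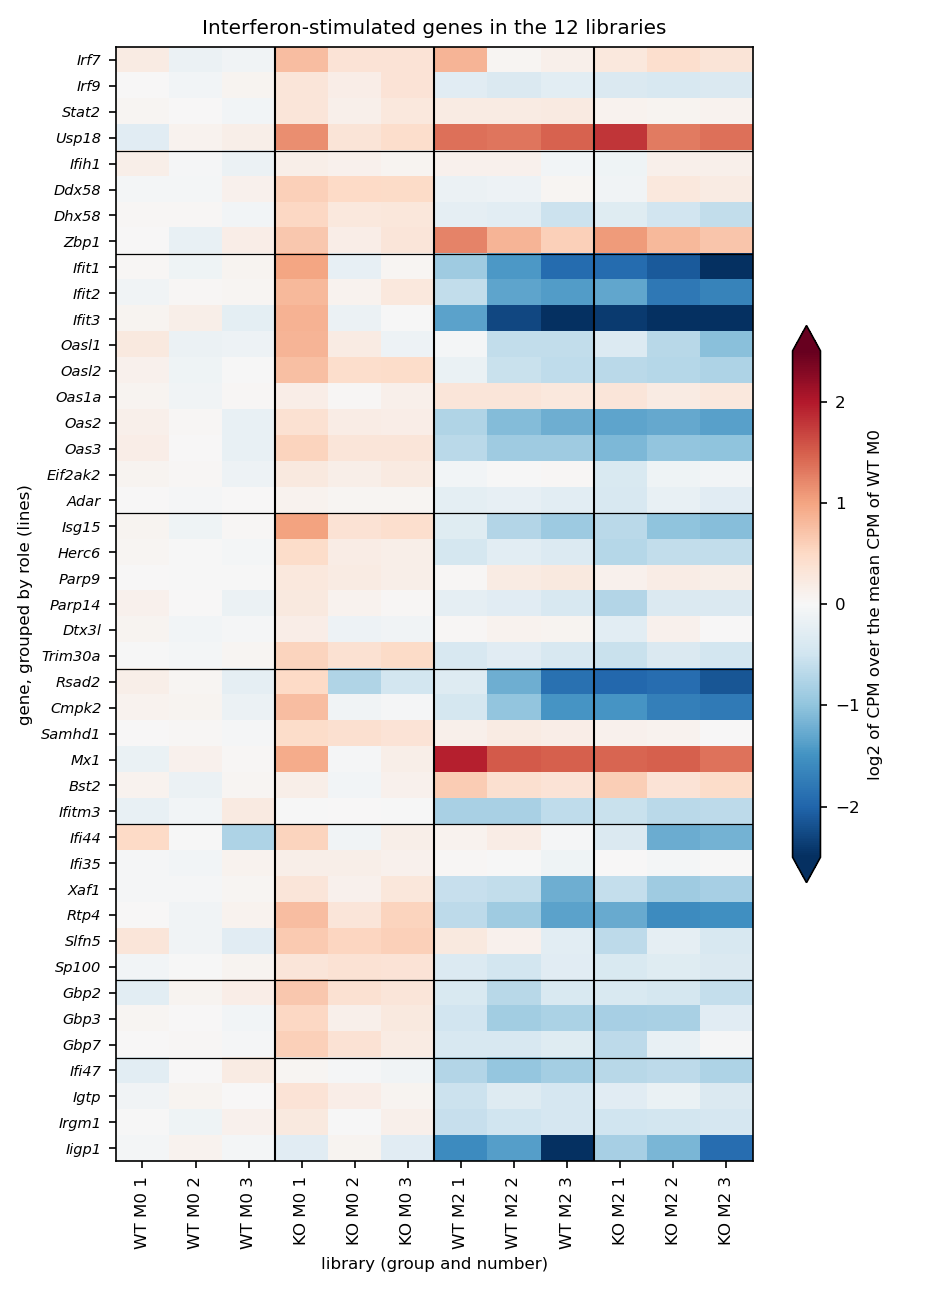
CPM of the 43 members (rows, in role groups) in the 12 libraries (columns), as log2 of the ratio to the mean of WT M0, red for higher and blue for lower. The column of KO M0 library 1 is the reddest of its group, as the highest library for 38 of 43 members, and the M2 columns are mostly blue.

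Among the members that carry the signal, 2 of 4 were called in M0, both higher, against 5.5% of all genes. IRF9, the DNA-binding subunit of the complex that binds the ISRE, had its transcript at 42, 39.7 and 43.7 CPM in WT M0, 51.7, 47.1 and 52.7 CPM in KO M0, 34.3, 32.6 and 34.7 CPM in WT M2 and 32.4, 31.7 and 32.5 CPM in KO M2. Every KO M0 library lay above every WT M0 library, and in M2 the order was turned by a narrow margin. The log2 fold change of Irf9, which overlaps Rnf31 on the same strand, was 0.27 ± 0.05 (adjusted p = 0.00951) in M0, and -0.30 ± 0.06 with IL-4 in WT and -0.65 ± 0.06 in KO, a difference of -0.34 ± 0.08 (adjusted p = 0.0349). Without WT M0 library 2 or KO M0 library 3 its M0 call was lost (adjusted p = 0.0538 and 0.0509), and the call for the difference was lost in 8 of 12 fits that left out 1 library (up to 0.0997).

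Stat2, which supplies the transactivation domain of that complex, measured 50.1, 48.6 and 46.3 CPM in WT M0, 60.1, 53.2 and 58.4 CPM in KO M0, 55.6, 56 and 56.8 CPM in WT M2 and 51.1, 50.8 and 51.3 CPM in KO M2. The groups did not overlap in either condition, with KO above WT in M0 and below it in M2. Its log2 fold change was 0.24 ± 0.05 (adjusted p = 0.0124) in M0, and IL-4 raised it in WT, with a log2 fold change of 0.21 ± 0.05 (adjusted p = 0.00412), and lowered it in KO, with a log2 fold change of -0.16 ± 0.05 (adjusted p = 0.016). The KO call was lost without KO M0 library 1 or 3 (adjusted p up to 0.0738). The difference was -0.38 ± 0.07 (adjusted p = 0.016), and both the M0 call and this call were lost without KO M0 library 3 (adjusted p = 0.0575 and 0.0533).

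Usp18, the protease that removes ISG15 and shuts off IFNAR2 signalling, went against the falling majority. It measured 3.56, 4.63 and 4.83 CPM in WT M0, 9.66, 5.44 and 5.86 CPM in KO M0, 11.2, 11 and 12 CPM in WT M2 and 14.9, 10.7 and 11.3 CPM in KO M2. Every M2 library lay above every M0 library, and KO M0 library 1 stood above its group. IL-4 raised Usp18 by 1.39 ± 0.21 (adjusted p = 0.000127) in WT and by 0.82 ± 0.20 (adjusted p = 0.00326) in KO, whereas the M0 difference of 0.68 ± 0.21 (adjusted p = 0.0637) did not pass in edgeR and passed in DESeq2 (adjusted p = 0.0208). The remaining member of the role, Irf7, the factor that amplifies type I interferon genes, was called in none of the comparisons in the unblocked edgeR fit to all libraries.

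The cytosolic nucleic acid sensors held 2 M0 calls out of 4, both higher, against 5.5% of all genes. Ddx58, which encodes RIG-I, the sensor of short uncapped RNA, measured 29.4, 29.4 and 32.8 CPM in WT M0, 46.1, 43.3 and 42.5 CPM in KO M0, 27.4, 28 and 31.7 CPM in WT M2 and 28.8, 36.8 and 35.2 CPM in KO M2. All KO M0 libraries lay above all WT M0 libraries, while the M2 groups overlapped. The M0 difference was 0.53 ± 0.09 (adjusted p = 0.00351), and IL-4 lowered Ddx58 in KO, with a log2 fold change of -0.38 ± 0.09 (adjusted p = 0.0023) beside -0.07 ± 0.09 (adjusted p = 0.55) in WT. The difference between the responses, -0.31 ± 0.13 (adjusted p = 0.216), did not pass.

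Dhx58 encodes LGP2, which tunes the signals of its relatives RIG-I and MDA5. Its transcript measured 28.2, 28.3 and 26.2 CPM in WT M0, 39.3, 33 and 33.5 CPM in KO M0, 23.5, 22.9 and 19 CPM in WT M2 and 22.3, 19.7 and 18.1 CPM in KO M2. KO M0 libraries lay above WT M0 libraries by 0.35 ± 0.10 (adjusted p = 0.0361), a call that was lost in 6 of 6 fits without 1 library (adjusted p = 0.0593 to 0.128). IL-4 lowered it, with a log2 fold change of -0.34 ± 0.10 (adjusted p = 0.0133, and 0.0607 without WT M2 library 3) in WT and -0.82 ± 0.10 (adjusted p = 1.29e-05) in KO. Dhx58 overlaps an antisense gene, Dhx58os, on the other strand, and the strand setting of the counting was not given in the sources used here.

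Zbp1, the sensor of Z-form nucleic acids that triggers necroptosis, rose with IL-4. It measured 4.17, 3.65 and 4.63 CPM in WT M0, 6.58, 4.67 and 5.14 CPM in KO M0, 9.86, 7.47 and 6.29 CPM in WT M2 and 8.66, 7.3 and 6.68 CPM in KO M2. No M0 library reached the lowest M2 library of its genotype. The increase was 0.93 ± 0.18 (adjusted p = 0.000998) in WT and 0.47 ± 0.17 (adjusted p = 0.0381) in KO, the latter lost without KO M0 library 2 or 3 or KO M2 library 1 or 2 (adjusted p = 0.0626 to 0.144). Ifih1, which encodes MDA5, was called in no comparison.

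The RNA effectors, the IFIT and OAS families with the kinase Eif2ak2 (PKR) and the deaminase Adar, mostly fell with IL-4. All 10 had a log2 fold change above 0 in M0 and below 0 in M2 for KO against WT, with medians of 0.33 and -0.29, and 2 of 10 were called in M0 (20% against 9.78% of all genes). Without KO M0 library 1 the M0 values of Ifit1 and Ifit3 turned below 0 (-0.065 and -0.066), and the M2 value of Adar turned above 0 in both limma fits (0.06) and without KO M2 library 1 (0.0021). With IL-4, 7 fell and 1, Oas1a, rose in WT, and 9 fell and Oas1a rose in KO, with medians of -0.62 and -1.35, where 25.1% and 26% of all genes were called lower. The KO call of Oas1a (0.16 ± 0.05, adjusted p = 0.0238) was lost in both limma fits, without a filter on low counts, without KO M0 library 2 or KO M2 library 1 or 3, and without both libraries of KO mouse 1 (adjusted p = 0.0561 to 0.301).

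Ifit1, Ifit2 and Ifit3 belong to the IFIT family, which includes proteins that bind viral RNA and block its translation. Ifit3 measured 8.31, 8.84 and 6.74 CPM in WT M0, 14.6, 7.24 and 7.94 CPM in KO M0, 3.13, 1.65 and 1.33 CPM in WT M2 and 1.51, 0.75 and 1.05 CPM in KO M2. KO M0 library 1 stood well above the other KO M0 libraries, which lay within the WT M0 range, and every M2 library was far below every M0 library. IL-4 changed Ifit3 by -1.95 ± 0.34 (adjusted p = 0.000408) in WT and by -3.20 ± 0.35 (adjusted p = 6.19e-06) in KO, the largest decrease of any member in both.

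Ifit1 measured 8.96, 8.15 and 9.23 CPM in WT M0, 17.3, 7.64 and 9.07 CPM in KO M0, 4.77, 3.25 and 2.3 CPM in WT M2 and 2.3, 2.04 and 1.56 CPM in KO M2. Again KO M0 library 1 stood apart from the others, and the M2 libraries were the lowest. The change with IL-4 was -1.34 ± 0.31 (adjusted p = 0.00299) in WT and -2.53 ± 0.31 (adjusted p = 1.9e-05) in KO. Ifit2 measured 10.4, 11.4 and 11.5 CPM in WT M0, 19.6, 11.8 and 13.3 CPM in KO M0, 7.22, 4.43 and 4.19 CPM in WT M2 and 4.52, 3.23 and 3.5 CPM in KO M2. Its changes with IL-4 were -1.06 ± 0.23 (adjusted p = 0.0017) in WT and -1.99 ± 0.22 (adjusted p = 7.1e-06) in KO. The difference between the responses passed for none of the 3 in the unblocked test (-1.19 ± 0.44, -0.93 ± 0.32 and -1.25 ± 0.50 for Ifit1, Ifit2 and Ifit3, adjusted p = 0.179, 0.14 and 0.212), while the fit with the mouse block called Ifit2 and Ifit3. Reads of Ifit3 and its near-identical copy Ifit3b may be divided between both genes.

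Of the OAS family, whose active enzymes sense RNA and make the activator of RNase L, Oasl2 and Oas3 were called in M0. Oasl2 measured 46.7, 40.1 and 42.7 CPM in WT M0, 72.3, 58.2 and 59 CPM in KO M0, 38.5, 29.5 and 27.7 CPM in WT M2 and 27, 26.2 and 25.2 CPM in KO M2. KO lay wholly above WT in M0 and wholly below it in M2. In M0 the genotypes differed by 0.55 ± 0.11 (adjusted p = 0.0104), and the IL-4 response was -0.43 ± 0.12 in WT and -1.27 ± 0.11 in KO, which differed by -0.84 ± 0.16 (adjusted p = 0.0173). Without WT M0 library 2 both calls were lost (adjusted p = 0.0584 and 0.0563), and without KO M2 library 3 the second was (0.0535).

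Oas3 measured 63.7, 57.1 and 50.5 CPM in WT M0, 83.9, 70 and 70.3 CPM in KO M0, 36, 30.7 and 31 CPM in WT M2 and 26.3, 29 and 28.3 CPM in KO M2. Its groups separated in the same manner, higher in KO in M0 and lower in KO in M2. Oas3 was higher in KO M0 by 0.39 ± 0.09 (adjusted p = 0.0227), a call lost without WT M0 library 2 or 3 or KO M0 library 1 (adjusted p = 0.0514 to 0.0903), and the IL-4 response went from -0.81 ± 0.10 in WT to -1.42 ± 0.10 in KO. The difference of -0.61 ± 0.14 (adjusted p = 0.0316) was lost in 9 of 12 fits without 1 library (up to 0.0785).

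The genes of ISG15 conjugation, ADP-ribosylation and ubiquitin transfer held 1 M0 call among 6 (16.7% against 9.78% of all genes), Trim30a, a TRIM-family ubiquitin ligase of rodents that restrains Toll-like receptor signalling. It measured 58.4, 56.2 and 60.8 CPM in WT M0, 85.6, 76.3 and 81.9 CPM in KO M0, 44.1, 47.8 and 44.4 CPM in WT M2 and 39.6, 45.3 and 42.5 CPM in KO M2. The lowest KO M0 library exceeded the highest WT M0 library, whereas the M2 libraries of both genotypes interleaved. Trim30a was higher in KO M0 by 0.47 ± 0.06 (adjusted p = 0.000828). With IL-4 its log2 fold change was -0.36 ± 0.06 in WT and -0.93 ± 0.06 in KO, a difference of -0.57 ± 0.09 (adjusted p = 0.00646). Members of the Trim30 family are alike in sequence, so that reads may be divided among them.

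Herc6, the main ligase for ISG15 in mice, was called for the difference of the responses. It measured 21.2, 20.3 and 19.6 CPM in WT M0, 28, 23.3 and 22.7 CPM in KO M0, 15, 17 and 16.1 CPM in WT M2 and 12.5, 13.4 and 13.3 CPM in KO M2. KO libraries lay above WT in M0 and below WT in M2 without overlap. The M0 value of 0.27 ± 0.08 (adjusted p = 0.0536) and the M2 value of -0.29 ± 0.09 (adjusted p = 0.093) each missed the threshold in edgeR, although DESeq2 called the former (adjusted p = 0.0418). The responses to IL-4, -0.35 ± 0.09 in WT and -0.91 ± 0.08 in KO, differed by -0.56 ± 0.12 (adjusted p = 0.0245). That call was lost without WT M0 library 2, WT M2 library 2 or KO M2 library 3 (adjusted p = 0.0579 to 0.0783). Isg15, the ubiquitin-like modifier itself, just missed the threshold in M0 at 0.62 ± 0.18 (adjusted p = 0.0508, and 0.0231 with DESeq2) and fell in both genotypes with IL-4 (-0.62 ± 0.20 in WT and -1.53 ± 0.19 in KO), the WT call being lost without WT M0 library 1 or WT M2 library 2 or 3 (adjusted p = 0.0531 to 0.0833).

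Among the effectors at membranes, nucleotides and capsids 1 of 6 was called in M0 (16.7% against 9.78% of all genes), Samhd1, which had the smallest p of all members in M0. SAMHD1 depletes the nucleotides that viral reverse transcription needs. Its transcript measured 208, 211 and 204 CPM in WT M0, 285, 273 and 264 CPM in KO M0, 228, 241 and 234 CPM in WT M2 and 225, 220 and 209 CPM in KO M2. KO lay above WT in M0 with a gap wider than the spread of either group, and below WT in M2 by a narrow one. Its increase in KO M0 was 0.40 ± 0.05 (adjusted p = 0.000402). IL-4 raised Samhd1 in WT, with a log2 fold change of 0.18 ± 0.05 (adjusted p = 0.00634), and lowered it in KO, with a log2 fold change of -0.33 ± 0.05 (adjusted p = 4.83e-05), and these responses differed by -0.51 ± 0.06 (adjusted p = 0.00315).

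Mx1, a dynamin-like GTPase that traps viral nucleocapsids and is truncated in many laboratory mouse strains, showed the largest increase with IL-4. It measured 4.14, 4.99 and 4.75 CPM in WT M0, 8.78, 4.56 and 5.14 CPM in KO M0, 17.9, 13.4 and 13.1 CPM in WT M2 and 12.7, 13.1 and 11.8 CPM in KO M2. Every M2 library lay above every M0 library, with KO M0 library 1 again the highest of the M0 libraries. The increase was 1.68 ± 0.21 (adjusted p = 2.48e-05) in WT and 1.05 ± 0.20 (adjusted p = 0.000697) in KO, and the difference of -0.64 ± 0.29 (adjusted p = 0.274) did not pass.

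Bst2 encodes tetherin, which holds budding virions at the cell surface. It measured 95.6, 82.1 and 93.5 CPM in WT M0, 100, 86.5 and 97.5 CPM in KO M0, 141, 119 and 115 CPM in WT M2 and 138, 114 and 124 CPM in KO M2. Every M2 library lay above every M0 library. IL-4 raised Bst2 by 0.47 ± 0.09 (adjusted p = 0.00109) in WT and 0.40 ± 0.09 (adjusted p = 0.00257) in KO, a difference of -0.06 ± 0.13. Ifitm3 went the other way, with -0.74 ± 0.09 in WT and -0.62 ± 0.09 in KO, and its M0 difference was -0.00 ± 0.09. The radical-SAM enzyme viperin (Rsad2) and its neighbour Cmpk2 fell in both genotypes, with log2 fold changes of -0.98 ± 0.34 (adjusted p = 0.0309) in WT and -1.86 ± 0.35 (adjusted p = 0.000693) in KO for Rsad2 and of -0.90 ± 0.25 (adjusted p = 0.0101) and -1.91 ± 0.25 (adjusted p = 3.67e-05) for Cmpk2. The WT call of Rsad2 was lost with DESeq2 and without WT M0 library 1 or 2 or WT M2 library 2 or 3 (adjusted p = 0.0523 to 0.112). For both genes KO M0 library 1 was the highest of its group.

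**Figure D5:**
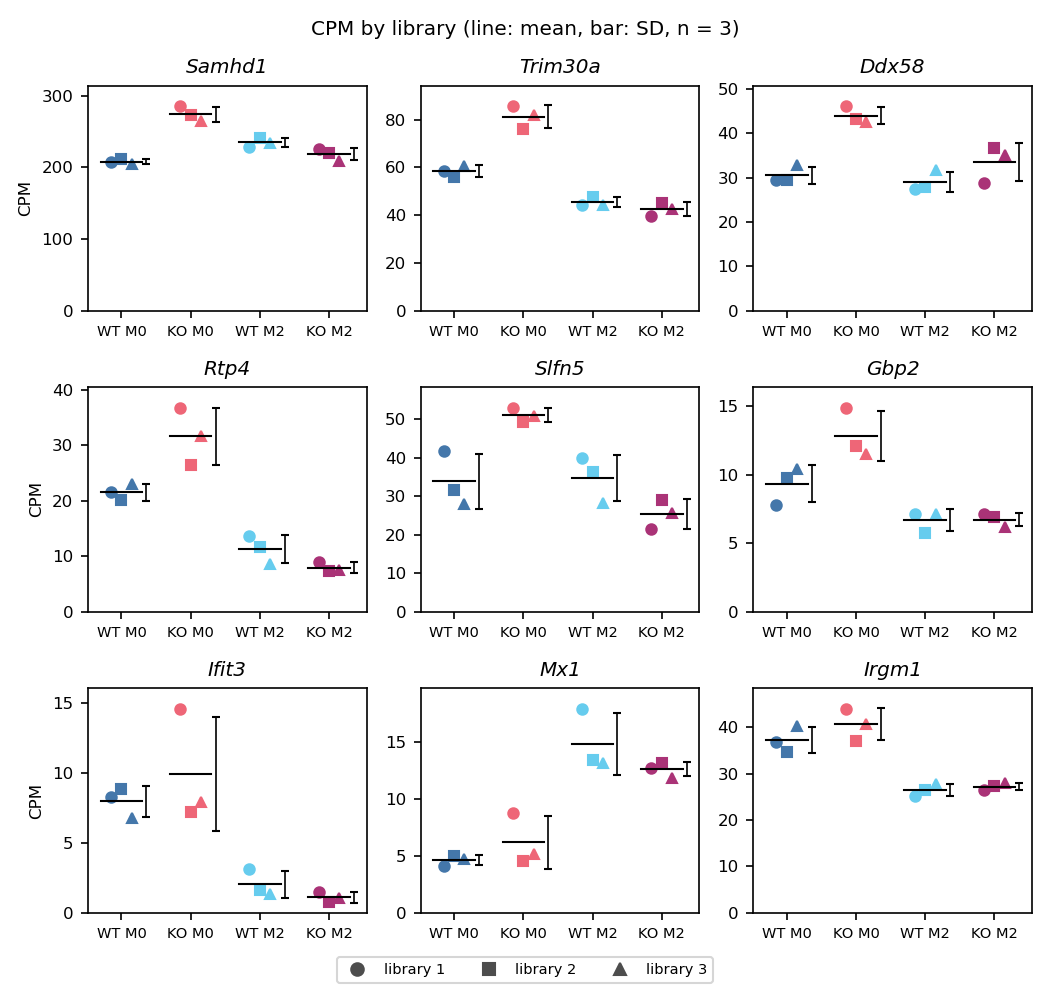
CPM of 9 members in every library, with points for libraries 1 to 3 of each group, horizontal lines for the mean and bars for the SD (n = 3). For Samhd1, Trim30a, Ddx58, Rtp4, Slfn5 and Gbp2 the KO M0 points lie above all WT M0 points, for Ifit3 and Mx1 KO M0 library 1 stands above its group, and for Irgm1 the genotypes overlap.

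The remaining type I targets held 3 M0 calls out of 6, all higher, against 5.5% of all genes. Sp100, a scaffold of nuclear bodies that silence viral DNA, measured 55.5, 57.3 and 60.9 CPM in WT M0, 71.4, 74 and 73 CPM in KO M0, 45.5, 42 and 47.4 CPM in WT M2 and 44.5, 47.1 and 44.9 CPM in KO M2. The KO M0 libraries formed a narrow band above WT M0, and the M2 libraries overlapped. Sp100 was higher in KO M0 by 0.33 ± 0.05 (adjusted p = 0.00299) and fell with IL-4, with log2 fold changes of -0.36 ± 0.06 in WT and -0.68 ± 0.05 in KO. The difference of -0.31 ± 0.08 (adjusted p = 0.046) was lost in 10 of 12 fits without 1 library (up to 0.114).

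Slfn5, an interferon-regulated member of the Schlafen family, measured 41.7, 31.6 and 27.9 CPM in WT M0, 53, 49.3 and 50.8 CPM in KO M0, 39.8, 36.2 and 28.1 CPM in WT M2 and 21.4, 29.1 and 25.6 CPM in KO M2. WT M0 spread widely and still did not reach KO M0, and in M2 the groups overlapped with KO mostly the lower. Slfn5 was higher in KO M0 by 0.59 ± 0.15 (adjusted p = 0.027). This call was lost in 5 of 6 fits without 1 library (up to 0.105) and kept without WT M0 library 1. The log2 fold change with IL-4 was 0.04 ± 0.15 (adjusted p = 0.864) in WT and -1.0 ± 0.15 (adjusted p = 0.000104) in KO. The difference of -1.04 ± 0.22 (adjusted p = 0.0231) was lost in 6 of 12 fits (up to 0.073). Slfn5 overlaps the antisense gene Slfn5os.

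Rtp4, a chaperone of receptor transport that also restricts viral RNA replication, measured 21.5, 20.1 and 23 CPM in WT M0, 36.8, 26.5 and 31.6 CPM in KO M0, 13.7, 11.6 and 8.54 CPM in WT M2 and 9, 7.24 and 7.46 CPM in KO M2. KO exceeded WT in every M0 library, and the M2 groups overlapped only through WT M2 library 3. The M0 difference of 0.55 ± 0.14 (adjusted p = 0.0307) was lost without WT M0 library 1 or 2 or KO M0 library 1 or 3 (adjusted p = 0.0617 to 0.117). IL-4 lowered Rtp4, with a log2 fold change of -0.93 ± 0.16 in WT and -2.01 ± 0.15 in KO, and the difference of -1.08 ± 0.22 (adjusted p = 0.0211) was lost in 6 of 12 fits (up to 0.066).

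In M0 1 of the 7 IFN-γ-type GTPases was called (14.3%), near the 9.78% of all genes, with a median log2 fold change of 0.20. For the difference between the IL-4 responses edgeR, DESeq2 and limma each called 0, and 1 passed an unadjusted p under 0.05, with a median of -0.08 against -0.53 for the 36 type I targets. With IL-4 all that were called fell, 6 of 7 in WT and 7 of 7 in KO, with medians of -0.50 and -0.69, where 25.1% and 26% of all genes were called lower. The contrast between both sets was not tested.

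Gbp2, a guanylate-binding protein that coats and breaks pathogen vacuoles, measured 7.79, 9.79 and 10.4 CPM in WT M0, 14.9, 12.1 and 11.5 CPM in KO M0, 7.13, 5.77 and 7.16 CPM in WT M2 and 7.12, 6.88 and 6.16 CPM in KO M2. KO lay above WT in M0 without overlap, and the M2 groups overlapped. The M0 difference was 0.46 ± 0.13 (adjusted p = 0.043), a call lost in 5 of 6 fits without 1 library (up to 0.147) and kept without WT M0 library 3. IL-4 lowered Gbp2, with a log2 fold change of -0.47 ± 0.14 (adjusted p = 0.0129, and 0.0619 without WT M2 library 2) in WT and -0.93 ± 0.13 (adjusted p = 6.12e-05) in KO. Gbp3 and Gbp7 lay in the same direction in M0, at 0.31 ± 0.17 (adjusted p = 0.298) and 0.39 ± 0.15 (adjusted p = 0.126), without passing, and reads of these related genes may be divided between them.

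The 4 IRG genes, which encode GTPases of vacuole attack and their regulators, showed no M0 call, with log2 fold changes from -0.14 to 0.20 and a median of 0.05 (0 at an unadjusted p under 0.05 as well, and 0 by DESeq2 and limma). Iigp1 fell the most of them with IL-4. It measured 0.388, 0.427 and 0.389 CPM in WT M0, 0.331, 0.424 and 0.332 CPM in KO M0, 0.136, 0.155 and 0.0511 CPM in WT M2 and 0.226, 0.181 and 0.108 CPM in KO M2. All values were under 1 CPM, and the M2 libraries lay below the M0 libraries in both genotypes. The change was -1.77 ± 0.44 (adjusted p = 0.00445) in WT and -1.10 ± 0.36 (adjusted p = 0.0206) in KO, the latter lost without KO M0 library 2 or KO M2 library 2 or 3 (adjusted p = 0.0521 to 0.102), and also with DESeq2 (0.121), with limma on log2(TPM + 1) (0.0801) and without a filter on low counts (0.0736). Irgm1, Igtp and Ifi47 fell in both genotypes by log2 fold changes between -0.42 and -0.84, and Igtp and Ifi47 each overlap a coding neighbour on the same strand, Irgm2 and Olfr56.

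Upstream of the members, none of the 8 interferon genes looked at (Ifnb1, Ifna1, Ifna2, Ifna4, Ifna5, Ifng, Ifnl2 and Ifnl3) had a count in any of the 12 libraries, which allows up to 3 counts or 0.0757 to 0.15 CPM per library and covers counting error only. Of 38 genes of the pathway outside the members, 29 were tested. In M0, 2 were called higher and 5 lower in KO, together 24.1% of the 29 against 9.78% of all genes, of which 4.27% were called lower. In M2 1 was called lower (3.45% against 1.46% of all genes), and for the difference between the IL-4 responses 2 were called higher (6.9% against 1.11%). Calls of pathway genes and of cell type markers come from the edgeR fit to all libraries alone. Unlike those of the members, they were not followed through other tools or left-out libraries, so their stability is not known.

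Of the receptors, those of type I interferon were not called between genotypes, with Ifnar1 at 227 ± 10.2 CPM in WT M0 and 218 ± 3.75 CPM in KO M0 (SD, n = 3). Ifnar2 lay lower in KO M0 without overlap, at 95.2 ± 1.83 CPM against 108 ± 1.27 CPM in WT M0 (SD, n = 3), and its log2 fold change of -0.18 ± 0.05 just missed the threshold (adjusted p = 0.0508, edgeR). The IFN-γ receptor chains were lower in KO M0, with log2 fold changes of -0.29 ± 0.06 (adjusted p = 0.0122) for Ifngr1 and -0.22 ± 0.05 (adjusted p = 0.0217) for Ifngr2. Ifngr2 measured 119, 132 and 140 CPM in WT M0, 110, 114 and 112 CPM in KO M0, 150, 150 and 150 CPM in WT M2 and 170, 166 and 165 CPM in KO M2. KO lay below WT in M0 and above it in M2, without overlap. Its response was higher in KO than in WT by 0.38 ± 0.08 (adjusted p = 0.0194).

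Among kinases and transcription factors, 1 of 8 was higher and 2 were lower in KO M0, where 5.5% and 4.27% of all genes were called. Tyk2 differed by 0.19 ± 0.04 (adjusted p = 0.0133). Jak2 differed by -0.50 ± 0.08 (adjusted p = 0.00354) and Irf1, an early interferon-induced transcription factor, by -0.27 ± 0.07 (adjusted p = 0.0284). TYK2 serves the type I receptor and JAK2 the IFN-γ receptor. Jak2 measured 51.9, 47.2 and 39.8 CPM in WT M0, 33.2, 33.9 and 31.4 CPM in KO M0, 117, 118 and 106 CPM in WT M2 and 95.9, 102 and 95.6 CPM in KO M2, with no overlap between genotypes in either condition and a large increase with IL-4.

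The RNA sensor Tlr7 was higher in KO M0 by 0.39 ± 0.06 (adjusted p = 0.0016), and the DNA sensor Cgas was lower in KO M2, with a log2 fold change of -0.38 ± 0.06 (adjusted p = 0.0125), the only pathway gene called there. Socs3, an inhibitor of JAK kinases downstream of several cytokine receptors, measured 26.4, 34 and 31.3 CPM in WT M0, 18.4, 18.7 and 12.6 CPM in KO M0, 6.09, 6.75 and 6.95 CPM in WT M2 and 10.1, 9.73 and 7.97 CPM in KO M2. KO was below WT in M0 and above it in M2, without overlap. The M0 difference was -0.89 ± 0.14 (adjusted p = 0.00306), and IL-4 lowered Socs3, with a log2 fold change of -2.21 ± 0.16 (adjusted p = 1.84e-07) in WT and -0.84 ± 0.15 (adjusted p = 0.000448) in KO, a difference of 1.38 ± 0.22 (adjusted p = 0.00755). Socs1, the inhibitor that also restrains interferon receptors, rose with IL-4 by 5.13 ± 0.23 (adjusted p = 2.2e-09) in WT and 5.58 ± 0.23 (adjusted p = 9.59e-10) in KO.

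Markers of T and NK cells and of plasmacytoid dendritic cells were at or near 0. Of 7 T and NK cell markers 5 had no count in any library, among them Cd3e and Cd8a, and the summed level was at most 0.136 CPM. The 5 plasmacytoid dendritic cell markers summed to 0.0657 to 0.42 CPM in WT M0 and 0.292 to 0.588 CPM in KO M0, with Klk1 at 0 throughout, and to 0.619 to 0.818 CPM in WT M2 and 0.404 to 0.603 CPM in KO M2, where Cox6a2 rose with IL-4 in WT (1.83, adjusted p = 0.00671). The 5 conventional dendritic cell markers summed to 0.259 to 0.623 CPM in M0 and 1.59 to 2.16 CPM in M2, and Zbtb46 rose with IL-4 by 2.54 in WT (adjusted p = 1.32e-05) and 2.45 in KO (adjusted p = 9.23e-06). Neutrophil markers were lower in KO M0, with 2 of 3 tested called (4.27% of all genes were called lower) and sums of 4.56 to 4.8 CPM against 6.66 to 16.4 CPM in WT M0, and 2 of 3 fell with IL-4 in WT (25.1% of all genes), to sums of 3.37 to 9.13 CPM. Stromal markers summed to 8.35 to 30.9 CPM in KO M0 against 30.3 to 54.6 CPM in WT M0, and to 9.21 to 26.9 CPM in KO M2 against 33.1 to 60.5 CPM in WT M2. The M0 sums overlapped, and none of the 5 stromal markers was called in any comparison. The part of these lists in the differences between genotypes and with IL-4 was not tested. In bulk RNA, fewer cells expressing a gene and less RNA per cell cannot be told apart.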

How the data were processed

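Total RNA of 12 BMM cultures was poly(A) selected and sequenced as single reads with a directional kit. Per the labels and the study's methods, the authors checked reads with FastQC 0.11.2, ran the Grape-nf pipeline and aligned to GRCm38/mm10. They deposited, per library, expected counts (estimated reads per gene, with reads that match several genes divided among them) and TPM values, whose columns are those of RSEM output. Further deposited tables hold the authors' own DESeq2 1.40.2 comparisons, and only their gene symbols were used here.

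Expected counts were rounded, and genes were filtered with filterByExpr and normalised by TMM in edgeR 4.0.16 (R 4.3.3). A quasi-likelihood model of the 4 groups was fitted to 12846 genes, with Benjamini-Hochberg adjustment over all of them, calls at 0.05, and a biological coefficient of variation of 8.08%. CPM are normalised by TMM. Counts of members and medians are descriptions, and no test was run over the list. Total expected counts ranged from 20011792 to 39632770, and each group held 3 libraries, both of which limit the precision. Only the unblocked edgeR fit was also run on simulated data, and its outcome is not given here.

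The members and lists were chosen with earlier results of these data known. All members could be named, with values in every library for those called between genotypes or for the difference (up to 12 each) and for the 4 largest increases and decreases with IL-4 in WT. Within a genotype, M0 and M2 libraries of 1 number deviated together from their group means (r = 0.103 to 0.364), so the number was taken as the mouse. WT and KO libraries of 1 number did not (r from -0.0684 to 0.0403). The study gives 3 mice per group, while the labels do not name the mouse behind a library, and p-values measure the spread between libraries. Alternatives were DESeq2 1.42.0, RLE size factors, no filter, 1 CPM in 6 libraries, limma 3.58.1 on log2(TPM + 1) or log2(TPM + 0.1), a replicate block, the 6 libraries of a comparison alone, and leaving out each library. Promoter sequences are from RefSeq (GRCm38.p6), where 35 of 44 members matched by symbol. A further gene of the pathway was left out of the list and is not reported here.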

Additional observations from a re-analysis of the deposited data

Results flagged for a closer look

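Among the members and the pathway genes outside them, the response to IL-4 differed between KO and WT BMMs for 12. The test was that of the difference itself (edgeR, adjusted p under 0.05), which called 3.24% of all genes, 2.13% lower and 1.11% higher. Among the members, the KO response minus the WT response on the log2 scale was -1.08 for Rtp4, -1.04 for Slfn5, -0.84 for Oasl2, -0.61 for Oas3, -0.57 for Trim30a, -0.56 for Herc6, -0.51 for Samhd1, -0.38 for Stat2, -0.34 for Irf9 and -0.31 for Sp100. Among pathway genes it was 1.38 for Socs3 and 0.38 for Ifngr2. Of the member calls, both limma fits kept only Samhd1 and Trim30a. The call of Sp100 was lost in 10 of 12 fits without 1 library, that of Oas3 in 9 and that of Irf9 in 8. The pathway calls were not followed through the alternatives. No test of a single outlying library was run. KO M0 library 1 was the highest of its group for 38 of 43 members.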

How the results depend on the processing

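No called member changed sign under an alternative in any comparison. Among members that were not called, 8 changed sign in at least 1 alternative in M0, 14 in M2, 5 with IL-4 in WT, 3 with IL-4 in KO and 5 for the difference. In M0 the 12 calls became 16 with DESeq2 (Herc6, Isg15, Parp9 and Usp18 added), 14 with RLE size factors, 14 without a filter, 15 at 1 CPM in 6 libraries, 9 in the 6 libraries alone, 4 with limma on log2(TPM + 1) and 4 on log2(TPM + 0.1) (Samhd1, Trim30a, Sp100 and Ddx58), 6 without both libraries of KO mouse 1, and 5 to 10 without 1 library. In M2 the count was 1 with DESeq2 and 0 to 1 without 1 library. For the difference between the IL-4 responses the 10 calls became 14 with DESeq2, 2 with limma on log2(TPM + 1) and 2 on log2(TPM + 0.1) (Samhd1 and Trim30a), 17 with the mouse as a replicate block, 2 without both libraries of KO mouse 1, and 3 to 10 without 1 library. The cause was not tested. With the library number as a replicate block, 13 members were called in M0 (11 of the 12, with Irf7 and Isg15 added and Gbp2 lost) and 0 in M2. With the mouse block 35 were called with IL-4 in WT and 39 in KO. Counts with IL-4 stayed between 28 and 35 in WT and between 35 and 39 in KO under all alternatives. Depth limits Ifi44 and Iigp1, which lay near or under 1 CPM.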
